A study of Mus musculus with 8 samples.

Results

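The keratin and late cornified envelope genes are the structural genes of skin, hair and other epithelia, and here they are described in hippocampus. Genes were chosen by name: every gene whose symbol, found from a probe's accession, is made of Krt and a number or starts with Lce and a digit. This gave 65 genes (49 keratin and 16 Lce) of the 20145 genes with a symbol. They were measured by 78 of the 55681 probes that are not controls, 59 for keratins and 19 for Lce. The rule also asked for the measured signals and detection calls, so detection and levels are given as a description, without a test.

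Hippocampus was taken from C57BL/6J males aged 11 weeks, in 4 groups. The AX+ME mice ran on a treadmill at mild intensity and ate food with astaxanthin, a carotenoid pigment from an alga. AX mice ate the same food and stayed sedentary, ME mice ran and ate a placebo powder, and SED mice stayed sedentary on placebo. Powder was mixed into the food at 0.5% in all 4 groups, and the astaxanthin powder held 2% astaxanthin. The labels give 8 mice per group but only 2 samples per group, the first in Cy3 dye and the other in Cy5, and each sample had 1 of the 8 arrays of a slide to itself. How the mice were combined is not stated. Since nothing ties the 2 samples to different mice, the p-values below may reflect technical spread alone.

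Keratins are intermediate filament proteins that work as obligate pairs of a type I and a type II chain. Simple epithelia such as the choroid plexus, which projects into the brain ventricles beside the hippocampus, use Krt8 with Krt18. Stratified epithelia such as epidermis use pairs such as Krt5 with Krt14 in the basal layer and Krt1 with Krt10 above it, and the hair follicle has its own sets for the inner root sheath and the hair shaft. Lce proteins are laid down under the membrane of keratinocytes late in their differentiation and become part of the cornified envelope, the cross-linked shell of a dead skin cell. Neurons and astrocytes build their intermediate filaments from other proteins, such as neurofilaments and Gfap.

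Signals are intensities of the sample's own dye divided by the 75th percentile of the array, so a value of 1 is as bright as that percentile. A probe was detected where the scanner software called it well above background. Signals of different probes cannot be set against each other, because probes differ in how well they bind. Over the 8 arrays the 75th percentile was 1240 to 2043, between 919 and 1474 spots were saturated, and correlations between arrays were 0.978 to 0.997 across probes. All 10 markers of hippocampal neurons were well above background on all 8 arrays. Both SED arrays held areas that differ from the other arrays: in array columns below 70, 809 of 13252 probes (6.10%) were at least 0.5 lower on the log2 scale in both dyes than in the other groups and 260 were higher, against 17 lower and 33 higher of 17138 probes from column 80 on. From column 80 on, the AX+ME arrays had 75 probes higher and 3 lower by this measure, the ME arrays 4 and 27, and the AX arrays 8 and 4. The column is therefore given for many of the named probes, and a probe named without one may lie in any column.

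The promoters of the simple epithelial keratins are shown because Krt18 and Krt23 are among the genes that differ between groups below, and Krt8 is the partner of Krt18. Each line holds the 250 bases before the annotated start of the gene, read 5′ to 3′ along its own strand, from RefSeq on build GRCm38.p6. Krt18 lies at chr15:102027966-102028215 on the plus strand, Krt8 at chr15:102004343-102004592 on the minus strand and Krt23 at chr11:99493121-99493370 on the minus strand. Capitals mark matches, on either strand, to TATAA (the TATA box), to TGANTCA (the AP-1 motif) or to GGGCGG (the GC box).
Krt18: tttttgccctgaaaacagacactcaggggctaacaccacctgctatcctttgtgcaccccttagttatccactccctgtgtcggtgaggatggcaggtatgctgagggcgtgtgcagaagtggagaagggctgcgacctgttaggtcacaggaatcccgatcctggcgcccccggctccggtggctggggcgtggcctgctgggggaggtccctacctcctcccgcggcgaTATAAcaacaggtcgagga
Krt8: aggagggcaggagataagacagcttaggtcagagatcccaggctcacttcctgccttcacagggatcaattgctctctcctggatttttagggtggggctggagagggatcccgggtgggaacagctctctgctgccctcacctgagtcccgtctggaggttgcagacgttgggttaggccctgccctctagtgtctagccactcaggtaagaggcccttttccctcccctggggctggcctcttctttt
Krt23: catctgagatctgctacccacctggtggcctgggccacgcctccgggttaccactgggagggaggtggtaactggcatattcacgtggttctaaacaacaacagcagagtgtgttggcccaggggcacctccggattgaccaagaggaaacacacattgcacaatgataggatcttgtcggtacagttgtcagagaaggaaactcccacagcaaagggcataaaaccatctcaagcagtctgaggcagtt
The Krt18 window held 1 match to TATAA, starting at position -19 from the start of the gene, and the Krt8 and Krt23 windows held none of the 3 motifs. The motifs do not overlap in these windows. Of the 65 member genes, 50 had a promoter in the table. TATAA was found in 26 of the 50 (52%), against 22.8% of all 32851 promoters of that length. GGGCGG was found in 2 of the 50 (4%), against 32.7% of all promoters, and TGANTCA in 1 (2%), against 6.75%. A member gene counted where any of its promoters matched, while the shares over all promoters are per promoter, which can raise the member share. A match describes the letters only.

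Fewer keratin and Lce probes than other probes were detected, and still 25 of the 65 genes gave a signal on every array. Of the 78 probes, 29 (37.2%) were well above background on all 8 arrays, against 58.9% of all probes. A further 25 (32.1%) were detected on no array, against 20.0% of all probes, and 24 (30.8%) on some arrays, against 21.2%. The nearest probes to detection on all 8 arrays were those of Krt87 and Lce3b, with 6 arrays each.

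Detection followed the dye and not the group. The AX+ME arrays detected 42 probes in Cy3 and 34 in Cy5, the AX arrays 49 and 29, the ME arrays 42 and 31, and the SED arrays 44 and 32. Each Cy3 array detected more members than each Cy5 array, and the Cy3 ranges of the groups lie within 42 to 49. The same order held for all probes, of which 70.8% to 75.5% were detected in Cy3 and 62.2% to 66.1% in Cy5. In the channel that held no sample, at most 2 of the 78 probes were called well above background on an array, beside 0.898% to 1.52% of all probes. The Krt35 probe was called in that channel on 4 arrays and in the sample's own dye on none.

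**Figure D1:**
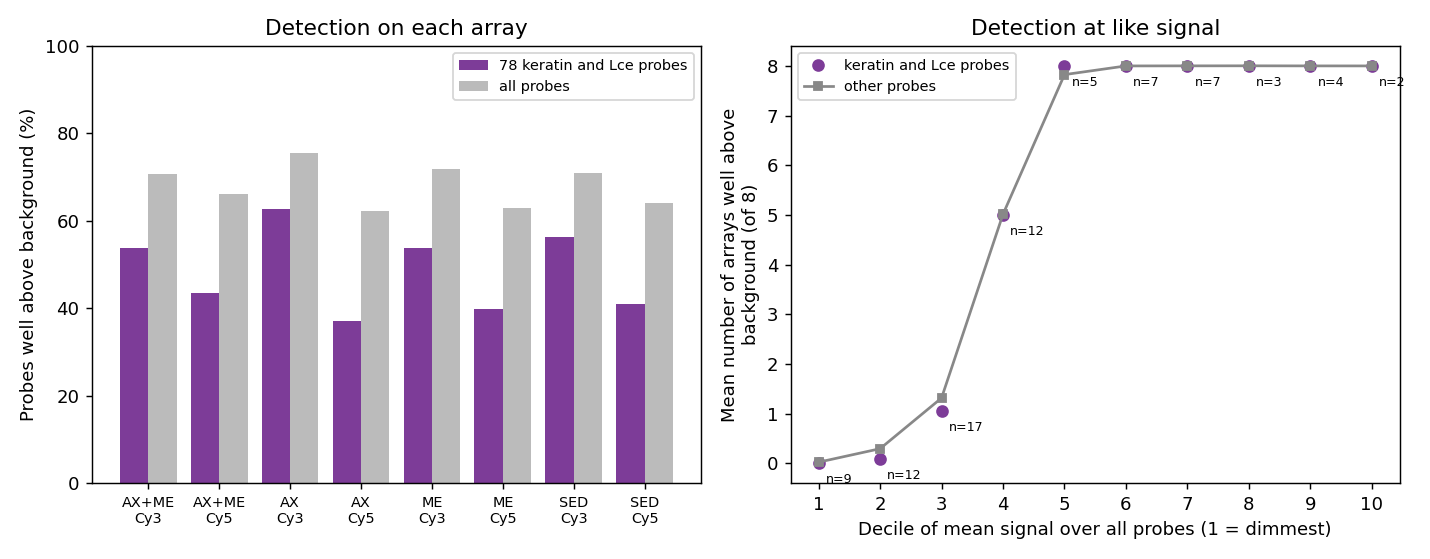
Left, the share of probes well above background (percent, bars from 0) on each of the 8 arrays, for the 78 keratin and Lce probes and for all probes; members were at 37.2% to 62.8% and all probes at 62.2% to 75.5%. Right, the mean number of arrays (of 8) on which probes were detected in each decile of mean signal, for members (points, with their number) and other probes (line); the points lie on or just below the line up to decile 4 and on or just above it from decile 5.

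At like signal, keratin and Lce probes were detected about as often as other probes. The detection call and the deciles both rest on the own-dye signal, so this likeness is largely built in. The 55681 probes were split into deciles by mean signal, and 50 of the 78 members fell in the 4 dimmest: 9, 12, 17 and 12. In decile 3 members were detected on 1.06 arrays on average and other probes on 1.32. In decile 4, 1 of 12 members was detected on all 8 arrays, against 4.66% of other probes, and in decile 5 it was 5 of 5, against 84.5%. The 23 members in the brighter deciles were each detected on all 8 arrays, as were 99.8% to 100% of other probes there.

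The groups of genes differed in how many members were detected. Counted the same way, 24379 of 37179 genes and unnamed transcripts on the array had at least 1 probe detected on all 8 arrays. Of 19 keratins of epidermis and other stratified epithelia, 13 were detected on all 8 arrays by at least 1 probe and 1, Krt76, on none. All 8 arrays detected 4 of the 6 simple epithelial keratins (Krt8, Krt18, Krt19 and Krt23), while Krt7 and Krt20 were each detected on 1 array. Hair genes were rarer: 2 of 9 keratins of the inner root sheath and companion layer (Krt28 and Krt73) and 2 of 12 of the hair shaft (Krt31 and Krt86) were detected on all 8 arrays, and 4 and 5 on none. Of the 16 Lce genes, 3 (Lce1a2, Lce1c and Lce1m) were detected on all 8 arrays and 7 on none. Over all 65 genes the counts were 25 on all arrays, 23 on some and 17 on none.

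Different probes for the same gene often disagreed on whether it was there. Among the 13 genes with 2 probes, both probes of Krt10, Krt2, Krt222 and Lce1a2 were detected on all 8 arrays. For Krt12, Krt28, Krt5 and Lce1c, however, 1 probe was detected on all 8 arrays and the other on at most 1. Both probes of Krt40 were on none, and the remaining 4 genes fell between. Lce1b, printed in 10 spots per array, had 1 spot above background on the Cy3 array of AX, 2 on the Cy5 array of SED and none on the other 6 arrays. Many keratin and Lce genes have close relatives in the genome, and whether a probe binds a relative was not tested, since probe sequences were not used here.

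The genes that go with keratins in skin were mixed in the same way. Of 34 other cornified envelope genes with a probe, such as loricrin and the Sprr genes, 12 were detected on all 8 arrays and 15 on none. Of 9 markers of epidermis and hair with a probe, 5 were detected on no array: Ivl (involucrin, an early envelope protein), Krtdap, Dsc1 (a desmosomal cadherin of upper epidermis), and Foxn1 and Hoxc13, transcription factors of the hair follicle. Signal was summed over the 4 markers that were tested, Lor, Trp63, Sbsn and Dmkn. This sum was 16.2 and 16.9 in AX+ME, 16.6 and 17.6 in AX, 16.8 and 17.6 in ME, and 18.6 and 18.5 in SED. The Dmkn probe lies in column 44, in the area where the SED arrays differ. The 50 keratin-associated protein genes, which make the matrix around hair keratin, had 22 detected on all 8 arrays and 14 on none. Of all genes and unnamed transcripts, 24379 of 37179 had a probe detected on all 8 arrays.

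Krt222, a keratin-like gene placed by name in the type I series, was too bright for its groups to be compared: the probe in column 103 was saturated on 7 of the 8 arrays. That probe had signals of 36.1 and 33.4 in AX+ME, 39.7 and 30.5 in AX, 42.6 and 30.4 in ME, and 41.5 and 28.3 in SED. The Cy3 sample was brighter than the Cy5 sample in each group, and the groups overlapped. Its other probe, in column 31, was saturated on no array and lay between 0.302 and 0.366 on the 8 arrays.

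Several epidermal and hair keratins were nearly level over the slide. Of the 25 genes detected on all arrays, 5 (Krt5, Krt73, Krt9, Lce1c and Krt31) had a highest sample less than 1.2 times the lowest. Krt9, a keratin of the thick skin of palms and soles, had signals of 2.86 and 2.98 in AX+ME, 2.93 and 2.91 in AX, 3.00 and 2.96 in ME, and 2.77 and 2.91 in SED. Krt5, the basal layer keratin, had 0.263 and 0.261 in AX+ME, 0.249 and 0.237 in AX, 0.245 and 0.252 in ME, and 0.242 and 0.245 in SED. Krt14, its partner, was at 0.0660 to 0.0888 over the 8 arrays, and the groups overlapped except AX+ME and SED, where both AX+ME samples were higher. Lce1a2 averaged 11.0 ± 0.431 in AX+ME, 10.4 ± 0.525 in AX, 10.3 ± 0.838 in ME and 9.20 ± 0.543 in SED (SD, n = 2 each), with overlapping samples in the first 3 groups.

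Other genes were set apart by 1 sample. Krt42, a type I keratin, read 0.296 in the Cy5 sample of AX and 0.0290 to 0.0455 in the other 7 samples. Krt88 read 0.0790 in the Cy5 sample of AX+ME and 0.0104 to 0.0228 in the others. For Krt10 in column 53, the Cy5 sample of SED read 0.974, against 1.56 in the Cy3 sample of SED and 1.76 to 1.91 in the other groups. The Krt10 probe in column 17 was also lowest in that sample, at 0.0966, but close to the next, with 0.0972 to 0.142 in the others.

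**Figure D2:**
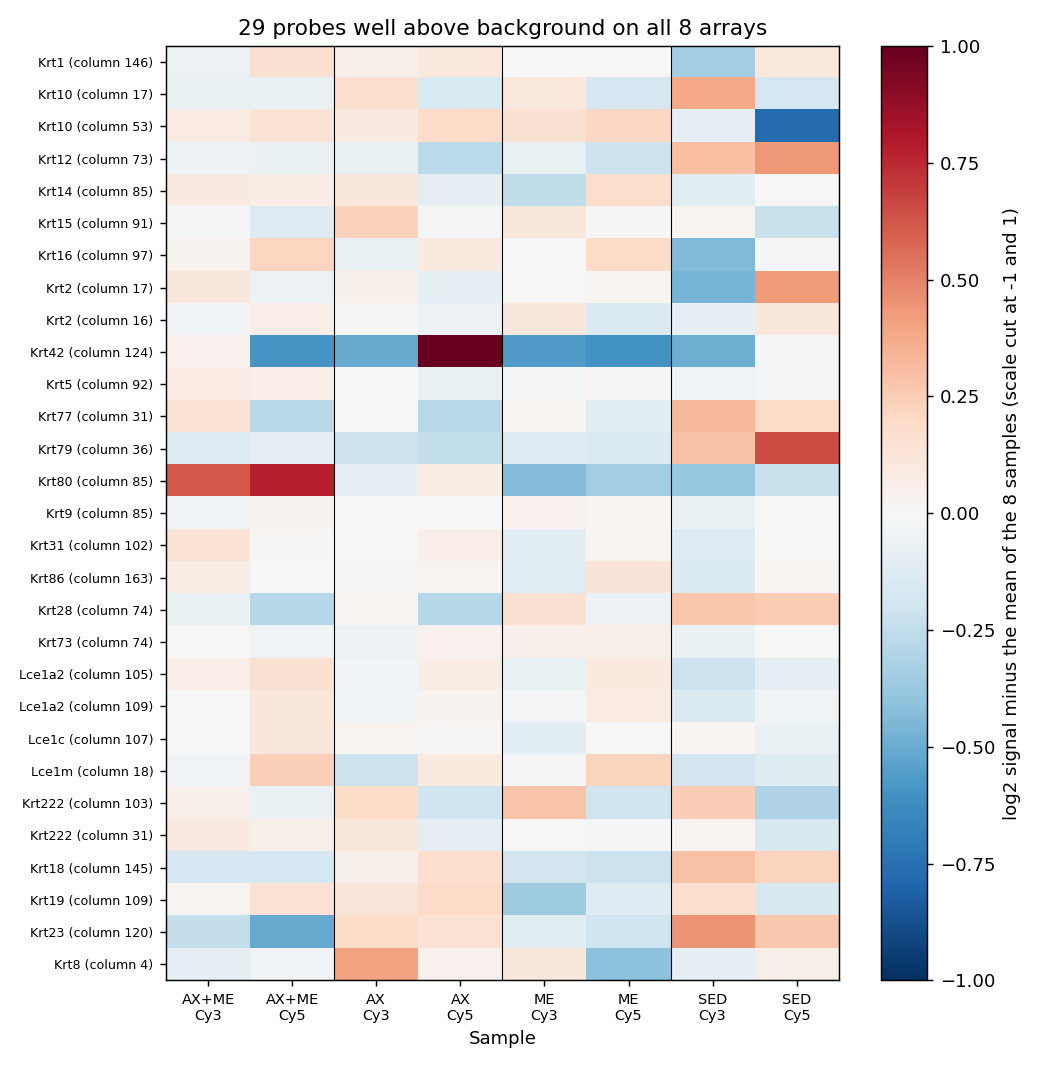
Each row is 1 of the 29 probes well above background on all 8 arrays, with its array column, and each column of cells is a sample, from AX+ME at the left to SED at the right; colour is the log2 signal minus the probe's mean over the 8 samples. Krt80 is high in both AX+ME samples, Krt18 and Krt23 are low in AX+ME and ME and high in SED, Krt79 and Krt12 are high in SED, the darkest single cell is Krt42 in the Cy5 sample of AX, and Krt10 in column 53 is low in the Cy5 sample of SED.

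For the comparisons, a gene entered where a probe was detected on both arrays of at least 1 group. This kept 37 of the 78 probes (47.4%, against 67.2% of all probes) and 33 of the 65 genes, each by its brightest probe, among 27171 genes and unnamed transcripts. Of the 33 genes, 6 (Krt17, Krt74, Krt88, Krt90, Lce1a1 and Lce1i) entered through 1 group only, and 5 of them, all but Krt74, were highest in that group. A gene that entered only through the group where it was bright had to differ, so counts over the 33 genes are not counts over all members. Lce3b entered only through AX+ME and ME, and Krt87 only through AX+ME and SED. The filter favoured their differences from the remaining groups too. limma was fitted to all 8 samples with group and dye as terms, and p-values were adjusted by Benjamini-Hochberg over all 27171, with a threshold of 0.05. The comparisons with SED share the SED samples. Array position on the slide follows group and dye, so position and group cannot be told apart. In bulk tissue, fewer cells of a type and less RNA per cell cannot be told apart either.

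Combined treatment against SED gave the most differences among the members: Krt80 and Lce3b rose, and Krt18 and Krt23 fell. These 4 of 33 genes stand beside 7.47% of all genes called in either direction (3.64% higher, 3.83% lower), and 4 of 33 is a count too small to set apart from that share. Over the 33 genes the median log2 difference was 0.05, against -0.05 over all genes, with 21 above 0 and 12 below.

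Krt80 is a type II keratin found in many epithelia, at cell margins next to desmosomes. Its probe, in column 85, read 0.249 and 0.279 in AX+ME, 0.153 and 0.171 in AX, 0.121 and 0.128 in ME, and 0.125 and 0.139 in SED. Both AX+ME samples were above all 6 others, both AX samples were above those of ME and SED, and ME and SED overlapped. The mean was 0.264 ± 0.0218 in AX+ME, 0.162 ± 0.0128 in AX, 0.124 ± 0.00517 in ME and 0.132 ± 0.0101 in SED (SD, n = 2 each).

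Against SED, Krt80 was 2.00-fold higher in AX+ME, a log2 difference of 1.00 (SE 0.0526, limma adjusted p = 0.0103), with 1.00 within Cy3 and 1.01 within Cy5. This was larger than in 98.3% of the other genes in its decile of mean signal. From column 80 on, where the probe lies, 75 of 17138 probes were at least 0.5 higher in both dyes in AX+ME and 3 were lower. The call held in the 10 other ways of processing tried, and with either SED sample left out. It was lost with any other sample left out, at an adjusted p of 0.0723 to 0.119, while the log2 difference stayed at 0.98 to 1.02. With such a sample left out, the call was also lost for nearly every other gene: at most 5 of 27171 were called in a comparison. Krt80 was known from earlier results of these data to stand out, so it is not independent support.

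Krt18, the type I keratin of simple epithelia, read 1.52 and 1.52 in AX+ME, 1.77 and 1.92 in AX, 1.51 and 1.48 in ME, and 2.10 and 2.00 in SED. The probe lies in column 145. The SED samples were above all others, the AX samples next, then the AX+ME samples and the ME samples lowest, though AX+ME and ME lay close together. The log2 difference was -0.43 for AX+ME against SED (SE 0.0660, limma adjusted p = 0.0407), and -0.46 for ME against SED, which missed the threshold (adjusted p = 0.0503). Against SED, AX gave -0.15 (adjusted p = 0.223). The call for AX+ME was kept in 7 of 10 other ways of processing (adjusted p 0.0135 to 0.0686 over the 10) and with the Cy3 sample of SED left out (0.0463). It was lost with the Cy5 sample of SED left out (0.0524) or any sample of the other groups (0.113 to 0.183).

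Krt23, a type I keratin of simple epithelia, moved alike in AX+ME. Its probe, in column 120, read 0.111 and 0.0921 in AX+ME, 0.148 and 0.145 in AX, 0.122 and 0.114 in ME, and 0.179 and 0.158 in SED. No AX+ME sample reached an SED sample. AX+ME was lower than SED by a log2 difference of -0.73 (SE 0.0757, limma adjusted p = 0.0243), larger than in 93.5% of other genes in its decile of signal. ME against SED gave -0.51 (adjusted p = 0.0522), and AX against SED -0.20 (adjusted p = 0.189). The call for AX+ME was kept in 8 of 10 other ways of processing (0.00674 to 0.0592) and without either SED sample, and lost without any other sample (0.0887 to 0.144).

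Krt8, the partner of Krt18, did not show this order. It read 0.0908 and 0.0954 in AX+ME, 0.129 and 0.0999 in AX, 0.105 and 0.0732 in ME, and 0.0918 and 0.101 in SED, and all groups but AX+ME and AX overlapped one another. Its log2 difference was -0.05 for AX+ME against SED (SE 0.193, limma adjusted p = 0.872) and -0.14 for ME against SED (adjusted p = 0.705). Its probe lies in column 4, within the area where the SED arrays differ. Krt19, another type I keratin of simple epithelia, read 0.0333 and 0.0362 in AX+ME, 0.0356 and 0.0375 in AX, 0.0256 and 0.0299 in ME, and 0.0368 and 0.0293 in SED, and passed in none of the comparisons.

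Markers of the choroid plexus moved beside Krt18 and Krt23. All 11 markers were detected on all 8 arrays, and their summed signal was 94.7 and 90.8 in AX+ME, 110 and 90.5 in AX, 111 and 85.7 in ME, and 131 and 105 in SED. In AX+ME against SED all 11 were below 0, with a median log2 difference of -0.55. Of these, 9 passed the threshold, beside 3.83% of all genes called lower. For ME against SED all 11 were again below 0, with a median of -0.44. There 7 passed, beside 256 of 27171 genes called lower. For AX against SED none passed (median -0.13). Ttr (transthyretin), which the choroid plexus makes in large amounts, was at -0.04 for AX+ME against SED (adjusted p = 0.869). Some markers of other neighbouring tissues were lower too. In ME against SED, 3 of 4 tested pituitary markers (median -2.19) and 2 of 9 of meningeal fibroblasts (median -0.33) were called lower. In AX+ME against SED, 1 of 4 pituitary markers (median 0.24) and none of the 9 fibroblast markers (median 0.03) were. All 4 ependyma markers were below 0 in both comparisons, and none passed. The part of any of these tissues in the Krt18 and Krt23 differences was not tested. Of 6 simple epithelium markers 3 were tested, and Cdh1 (E-cadherin) was lower in ME than in SED by -0.74 (adjusted p = 0.0448) and at 0.10 in AX+ME (adjusted p = 0.512).

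Lce3b was the only Lce gene to rise in a comparison. It read 0.0498 and 0.0366 in AX+ME, 0.0349 and 0.0295 in AX, 0.0287 and 0.0346 in ME, and 0.0224 and 0.0191 in SED, and was detected on 6 arrays, but not on the Cy5 arrays of AX and SED. Both SED samples were below all others. Its probe lies in column 119, among the columns from 80 on where 75 probes were higher in AX+ME and 3 lower. Lce3b entered the test through AX+ME and ME but not SED, so its call against SED is no independent evidence of a difference. AX+ME was higher than SED by a log2 difference of 1.04 (SE 0.182, limma adjusted p = 0.0473). This is near the threshold: 2 of 9 other ways of processing kept the call (adjusted p 0.0457 to 0.114), with a difference of 0.23 after another background correction, and no fit that left out a sample did (0.0693 to 0.189). In its dim decile, 81.9% of other genes had a smaller difference.

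Lce1i was the only member called in AX against SED and in ME against SED, lower in both. It read 0.0174 and 0.0204 in AX+ME, 0.0111 and 0.0128 in AX, 0.0136 and 0.0132 in ME, and 0.0241 and 0.0272 in SED. Both SED samples were above all others, AX+ME lay between, and AX and ME were lowest and did not overlap. Both SED arrays detected it, but in each of the other groups only the Cy3 array did, and its other probe, in column 61, was detected on none of the 8 arrays. Lce1i thus entered the test only through SED, where it was highest, so its calls against SED are no independent evidence of a difference.

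For AX against SED, Lce1i had a log2 difference of -1.10 (SE 0.0855, limma adjusted p = 0.0171), beside 3.87% of all genes called. For ME against SED it had -0.93 (adjusted p = 0.0217), beside 2.76% of all genes called. These were larger than in 85.8% and 82.5% of other genes in its decile of signal. Its probe is in column 72, and in columns 70 to 79 of the SED arrays 12 of 2047 probes were at least 0.5 higher in both dyes and none lower. Tested over columns from 70 on alone, neither passed (adjusted p = 0.0783 for AX and 0.0822 for ME). With a sample of AX, ME or AX+ME left out both calls were lost (0.0791 to 0.193 for AX, 0.0850 to 0.182 for ME). The background correction that gave 0.23 for Lce3b gave -0.44 for AX and -0.43 for ME.

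**Figure D3:**
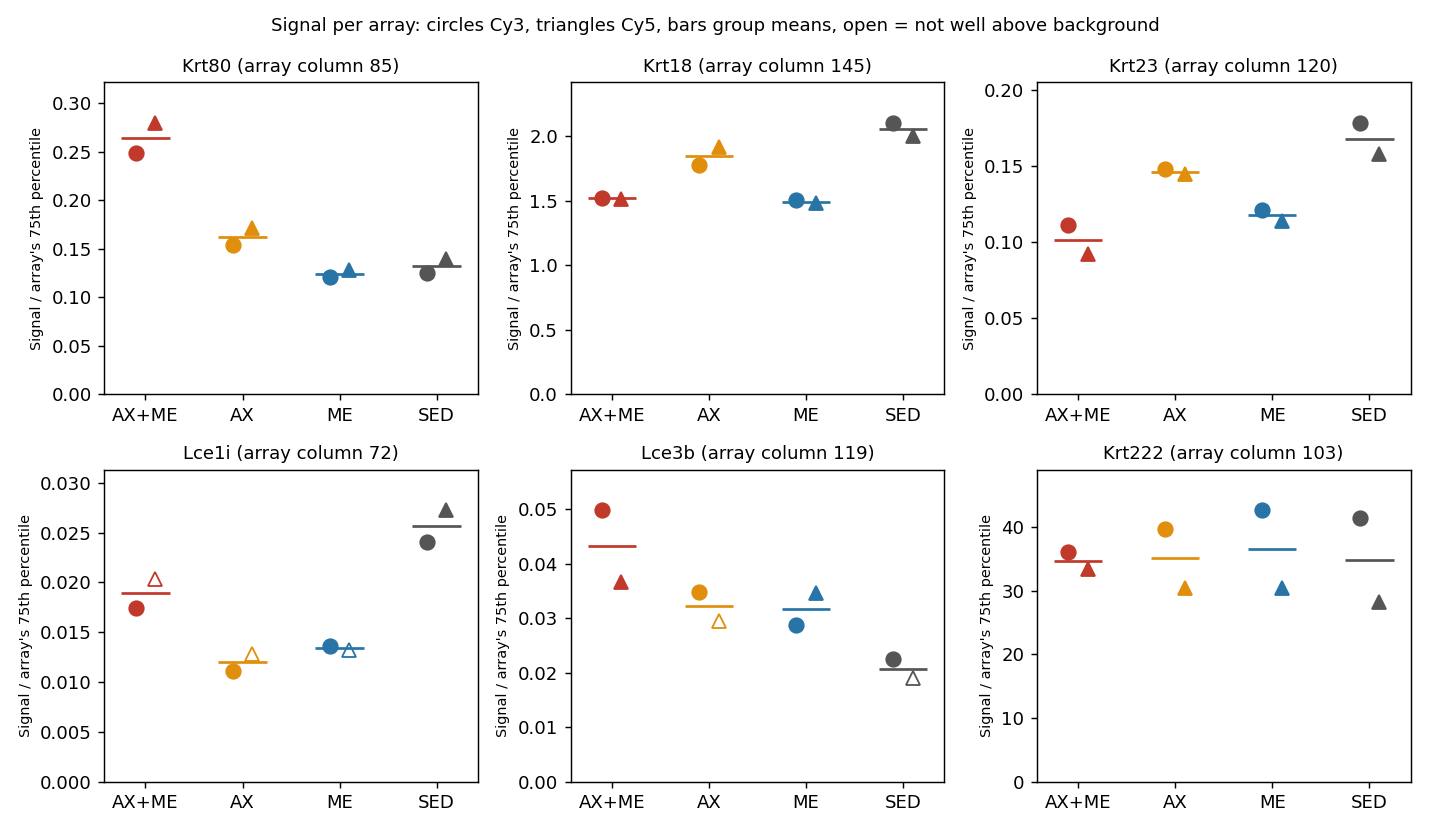
Signal divided by the array's 75th percentile (vertical axes from 0, a scale for each gene) for Krt80, Krt18, Krt23, Lce1i, Lce3b and Krt222 in AX+ME, AX, ME and SED; circles are Cy3 samples, triangles Cy5 samples, bars the group means, and open symbols arrays where the probe was not well above background. Krt80 reaches 0.279 in AX+ME and stays at or below 0.171 elsewhere, while Krt18 and Krt23 are highest in SED; Krt222 was saturated on 7 of the 8 arrays.

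Some members, whether or not they passed the test, differed by 1.5-fold or more in 1 direction in each dye. In AX+ME against SED these were Krt80, Lce3b and Lce1a1 upward (3 of 33, beside 3.85% of all genes) and Krt23 downward (1 of 33, beside 1.19%). Lce1a1 read 0.0229 and 0.0304 in AX+ME, 0.0160 and 0.00599 in AX, 0.0150 and 0.0160 in ME, and 0.0152 and 0.0116 in SED, so both AX+ME samples were above the rest, at an adjusted p of 0.218 (log2 difference 0.99, and 0.075 after the background correction that gave 0.23 for Lce3b). It entered the test only through AX+ME.

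In AX against SED, Krt74 and Lce3b lay that far apart upward (2 of 33, beside 3% of all genes) and Lce1i and Krt87 downward (2 of 33, beside 0.872%). Krt74, a keratin of the inner root sheath, read 0.0344 and 0.0291 in AX and 0.0223 and 0.0155 in SED, a log2 difference of 0.77 (adjusted p = 0.0798) that was 0.022 after the other background correction. Krt87, a hair shaft keratin in column 75, read 0.0122 and 0.00909 in AX and 0.0223 and 0.0373 in SED, a log2 difference of -1.45 (adjusted p = 0.0849), or -0.65 after that correction. Neither pair of groups overlapped, and neither gene passed. Krt87 entered the test through AX+ME and SED, and not through AX or ME.

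In ME against SED, Krt17 lay that far apart upward (1 of 33, beside 2.78%) and Lce1i and Krt87 downward (2 of 33, beside 0.784%). Krt17, a keratin of hair follicles and of wounded or stressed epidermis, read 0.0227 and 0.0660 in ME and 0.0140 and 0.0408 in SED. Neither SED array detected it, the samples of the groups overlapped, and the adjusted p was 0.411. Krt17 entered the test only through ME, where it was highest. Its probe lies in column 20, in the area where the SED arrays differ.

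Several members came close to the threshold against SED, in both directions. For AX+ME, Krt28 in column 74 gave -0.45 (limma adjusted p = 0.0515) and Lce1i -0.44 (0.0543). Lce1a2 in column 105 gave 0.26 there (0.0572). For AX, Krt80 gave 0.30 (0.0580). Krt79 and Krt12 also came close and were higher in SED. Krt79, a keratin of the hair follicle opening and sebaceous duct, read 1.13 and 1.17 in AX+ME, 1.07 and 1.05 in AX, 1.13 and 1.12 in ME, and 1.52 and 1.95 in SED. Its probe lies in column 36, in the area where the SED arrays differ. The log2 difference was -0.58 for AX+ME against SED (adjusted p = 0.0574), -0.70 for AX (adjusted p = 0.0536) and -0.61 for ME (adjusted p = 0.0751). Krt12, the type I keratin of the cornea, in column 73, read 0.421 to 0.489 in the 3 treated groups and 0.623 and 0.685 in SED, with -0.43 for AX+ME against SED (adjusted p = 0.0678).

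Over the 33 genes the median log2 difference was 0.04 for AX against SED and 0.02 for ME against SED, against -0.05 over all genes in each. In AX 20 members were above 0 and 13 below, and in ME 17 and 16.

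When AX+ME was set against a single treatment, Krt80 had the lowest p of the 33 genes but did not pass, and it did not differ most. Against ME, Krt88 differed more (1.39), and Krt17 about as much downward (-1.09). Against AX, Krt88 (1.69), Lce1a1 (1.43), Krt42 (-1.39) and Krt87 (0.90) differed more. None of these passed. Against ME, Krt80 was 2.12-fold higher, a log2 difference of 1.09 (SE 0.0526, limma adjusted p = 0.163), larger than in 99.96% of other genes in its decile of signal. Against AX the difference was 0.70 (SE 0.0526, adjusted p = 0.380), larger than in 99.6% of them. limma called no gene in either comparison (0% of 27171). At an unadjusted p under 0.05, 3 members were higher and 2 lower against ME, among 2228 genes, and 5 higher and 3 lower against AX, among 1614.

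Over array columns from 70 on alone, Krt80 passed against ME (adjusted p = 0.0425), as it did over columns from 80 on (0.0368). Genes at least 1.5-fold higher in both dyes were Krt80, Krt88 and Lce1a1 against ME (3 of 33, beside 0.986% of all genes; Krt88 and Lce1a1 had entered only through AX+ME, where they were highest) and Krt80 and Lce1i against AX (2 of 33, beside 0.644%), and no member was that much lower in either (beside 0.184% and 0.309% of all genes). Krt88 rests on its Cy5 sample in AX+ME, and after the other background correction Krt88 and Lce1a1 differed from ME by 0.57 and 0.25. The median over the 33 genes was 0.05 against ME and 0.04 against AX, beside -0.01 and 0.01 over all genes.

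**Figure D4:**
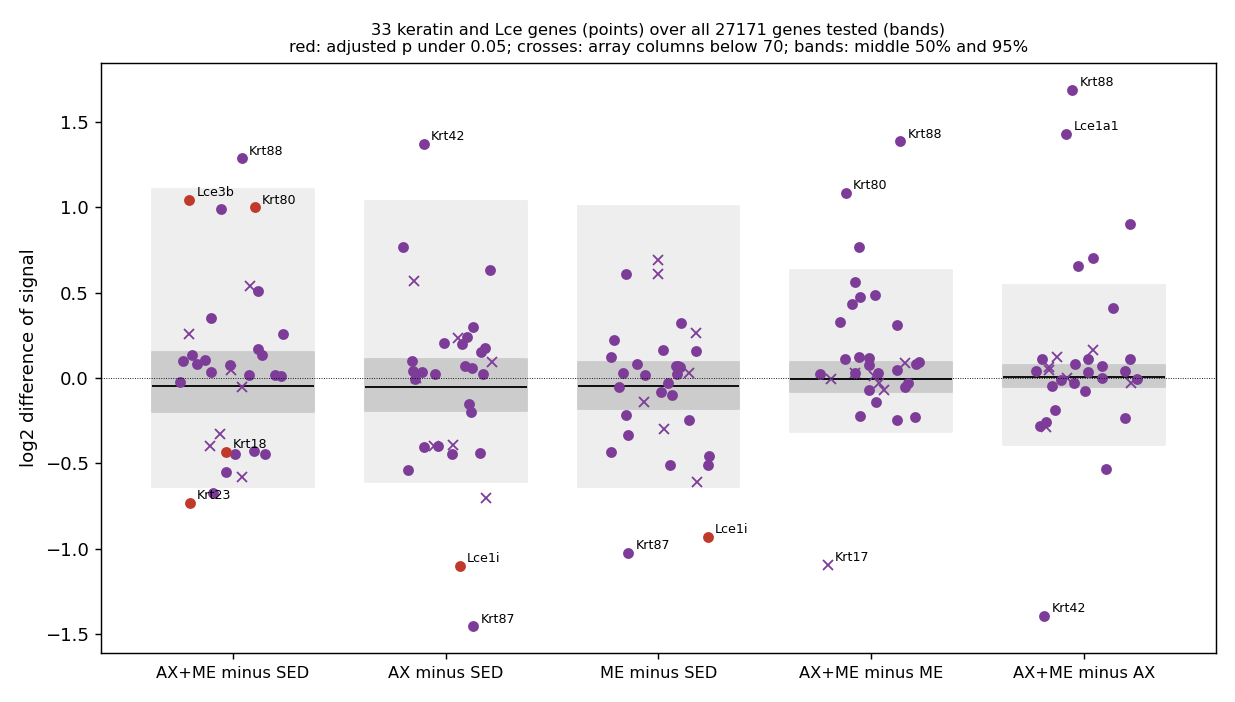
The log2 difference of signal of the 33 tested keratin and Lce genes (points, spread sideways for legibility) in 5 comparisons, over bands that hold the middle 50% and 95% of all 27171 genes and a line at their median; red marks an adjusted p under 0.05 and crosses mark array columns below 70. Most points lie within the bands, the 6 red points are Lce3b, Krt80, Krt18 and Krt23 in AX+ME against SED and Lce1i in AX and in ME against SED, and Krt80 lies above the bands in AX+ME against ME.

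The interaction asks whether running changed a gene differently on astaxanthin than on placebo (AX+ME against AX, less ME against SED). It was called for 2 of 33 members, Krt80 and Lce1i, beside 0.548% of all genes. Lce1i had entered only through SED, where it was highest, so the filter favoured its call. Krt80 was known from earlier results of these data to stand out. For Krt80 running gave 0.70 on astaxanthin (AX+ME against AX) and -0.08 on placebo (ME against SED), an interaction of 0.79 (SE 0.0743, limma adjusted p = 0.0498). For Lce1i running gave 0.66 on astaxanthin and -0.93 on placebo, an interaction of 1.59 (SE 0.121, adjusted p = 0.0429). With the other background correction the interaction of Lce1i was 0.60 and its 0.66 was 0.17. Both are close to the threshold, at adjusted p values of 0.0222 to 0.142 for Krt80 and 0.0374 to 0.163 for Lce1i over the other ways of processing. Both were lost with any sample of AX, ME or AX+ME left out (0.224 to 0.358 for Krt80, 0.200 to 0.333 for Lce1i). The median interaction over the 33 genes was 0.01, beside 0.05 over all genes.

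Some genes around keratins were called, in counts too small to set apart from the share of all genes called. That share was 7.47% for AX+ME against SED, 3.87% for AX against SED and 2.76% for ME against SED. None of the 15 tested cornified envelope genes other than Lce passed in any of the 6 comparisons, nor did any of the 4 tested markers of epidermis and hair. Of 10 tested genes that anchor keratins to junctions, Jup (plakoglobin) was higher than SED in AX+ME by 1.30 (adjusted p = 0.0203), in AX by 1.11 (adjusted p = 0.0292) and in ME by 0.92 (adjusted p = 0.0441). Its probe lies in column 21, where the SED arrays differ. Perp, a desmosome-associated membrane protein, was lower in AX+ME than in SED by -0.36 (adjusted p = 0.0476). Of 7 keratinocyte transcription factors tested, Klf4, a factor of barrier formation, was lower in AX+ME than in SED by -0.47 (adjusted p = 0.0339). The Klf4 probe lies in column 71. Among 16 other intermediate filament genes, Ina (internexin, a neuronal filament) in column 2 was lower in AX+ME by -0.50 (adjusted p = 0.0333) and in AX by -0.43 (adjusted p = 0.0478).

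Of 25 tested keratin-associated protein genes, Krtap4-9 rose by 0.95 (adjusted p = 0.0337) and Krtap5-4, in column 13, by 0.85 (adjusted p = 0.0443) in AX+ME against SED. Krtap19-4 fell there by 0.33 on the log2 scale (adjusted p = 0.0389) and in AX against SED by 0.38 (adjusted p = 0.0384). These calls stand beside 7.47% of all genes called in AX+ME against SED and 3.87% in AX against SED. The median of the 25 genes for AX+ME against SED was 0.10, beside -0.05 over all genes.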

How the data were processed

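Hippocampal RNA of 4 groups of mice was profiled on 8 arrays of 1 slide. Per the submitters' processing notes, the authors' scanner files come from Agilent Feature Extraction 11.0.1.1, which gave an intensity per spot, with a 2-channel protocol and a probe design on mm9, per the file headers. The authors' deposited value list holds the same intensity values, equal to the own-dye processed signal within 0.5 (column medians 98 to 174), so it is linear and neither scaled nor centred.

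From these, the own-dye processed signal was taken, control and non-uniform spots were dropped, spots of a probe were averaged, and each value was scaled to the 75th percentile of its array over probes, floored at 0.001 and put on a log2 scale. The log2 values were computed here from the deposited intensities. Probes well above background on both arrays of a group were kept (37415), and the brightest probe of a gene was used. limma 3.58.1 in R 4.3.3 fitted group and dye (3 residual and 1.52 prior degrees of freedom), and was tested on simulated data. A probe was called detected where at least 50% of its spots were. Each dye marks a replicate number, so dye is the block. The arrays' number limits precision. Symbols came from accessions through RefSeq's gene table. The members, lists and named genes were chosen with earlier results of these data known. Members were named if they passed the test, were 1.5-fold apart in both dyes, or were detected on all arrays. Krt42, Krt10, Krt79, Krt12, Krt14 and Krt28 were given values after these were seen. Alternatives were quantile normalization, normexp with an offset of 50 on median signals (no mean signal column was used), other filters, columns, probe choices and floors (0.01), no dye term, and each sample left out.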

Additional observations from a re-analysis of the deposited data

Results flagged for a closer look

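2 members passed the test of whether the running effect differed between astaxanthin and placebo, both near the threshold, and neither is independent evidence. For Lce1i this difference was 1.59 on the log2 scale (limma adjusted p = 0.0429), and running gave 0.66 on astaxanthin and -0.93 on placebo. For Krt80 it was 0.79 (limma adjusted p = 0.0498), with 0.70 on astaxanthin and -0.08 on placebo. In both, the Cy3 and the Cy5 samples gave the same sign: 1.47 and 1.71 for Lce1i, and 0.75 and 0.83 for Krt80. Krt80 was detected on all 8 arrays, and Lce1i on 5. Lce1i entered the test only through SED, where it was highest. SED counts as a plus in the interaction, so the filter favoured this call and its sign in both dyes. Its difference was 0.60 after normexp background correction. Krt80 was known from earlier results of these data to stand out. Samples far from their group could not be looked for, since groups hold 2 samples.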

How the results depend on the processing

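Direction was kept in the alternatives run for the 8 called differences, and detection on Cy5 arrays near the background limits what dim Lce and hair keratin probes can show. Krt80 in AX+ME against SED kept its call under all 10 alternatives that keep the 8 samples. The other calls did not: genes called were, for ME against SED, 3 with normexp, 2 among genes detected on all 8 arrays, 2 with a floor of 0.01 and 0 with no filter, from column 70 or from column 80, against 1. For AX against SED they were 3 with normexp, 3 with detection on all 8 arrays and 0 from column 70 or 80, against 1. For AX+ME against SED they were 1 with no filter, 2 from column 70 and 1 from column 80, against 4, and for AX+ME against ME 1 from column 70 and 1 from column 80, against 0. For the interaction they were 1 with quantile normalization, normexp, detection on all 8 arrays or the mean of probes, and 0 with no filter, from column 70 or 80 or with each probe on its own, against 2. Over all genes the calls moved too. For ME against SED, normexp called 1095 higher and 860 lower, against 495 and 256. No filter called 204 and 35 of 37179 there, and columns from 70 on gave none. For AX against SED, normexp called 1368 and 2819, against 573 and 478. For AX+ME against SED, no filter called 296 and 115, against 989 and 1041. The changes in member counts are thus not particular to the members. Fewer genes are tested from column 70 on (17499), and otherwise the cause was not tested. The floor of 0.01 and column 80 were chosen after seeing the data.

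With no dye term (no replicate block), 2 genes were called for ME against SED and 1 for the interaction, and the other counts moved by less than 1.5 times. With 1 sample left out, where the lone sample is assumed to vary like the other groups, 0 to 8 genes were called for ME against SED, 0 to 7 for AX against SED, 0 to 9 for AX+ME against SED, 0 to 5 for the interaction, and 0 to 0 for AX+ME against ME and against AX. Each 0 came without a sample of AX, ME or AX+ME, and each highest count came without the Cy3 sample of SED, when up to 5424 of all genes were called.

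Median log2 differences of the members were small. For ME against SED the median was -0.12 with normexp, -0.031 with no filter, -0.0075 from column 70, 0.000798 with the mean of probes and 0.026 from column 80, and -0.011 to 0.029 with a sample left out. Normexp also moved the median of all genes to -0.14, from -0.05, for that comparison. Under normexp it was -0.14 for AX against SED, -0.10 for AX+ME against SED, 0.027 for AX+ME against AX and 0.19 for the interaction. For AX+ME against ME it was 0.084 with no filter, 0.089 from column 70 and 0.085 from column 80. For AX+ME against AX it was 0.015 with quantile normalization, 0 with no filter and 0.018 from column 80, and for the interaction -0.024 with detection on all 8 arrays and -0.027 from column 80. With a sample left out the medians lay between 0.01 and 0.09 for AX against SED, 0.05 and 0.07 for AX+ME against SED, 0.03 and 0.07 for AX+ME against ME, 0.015 and 0.11 when it was set against AX, and -0.0041 and 0.063 for the interaction.

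Members 1.5-fold apart in both dyes numbered, with normexp, no filter and detection on all 8 arrays, 1, 11 and 0 for ME against SED, 0, 8 and 0 for AX against SED, 2, 11 and 2 for AX+ME against SED, 1, 11 and 1 for AX+ME against ME, and again 1, 11 and 1 against AX. The members tested numbered 33, 65 and 25 in these 3 settings. No filter lets in probes detected on no array. Shares over all genes are not given for these settings, so the counts are not results about the members. Quantile normalization gave 2 for AX against SED and 1 for AX+ME against AX. Lce3b in AX against SED, which was not called, turned to -0.066 with normexp. With the software's looser flag (positive and significant) 54 members were detected on the Cy5 array of AX+ME, 50 on that of AX, 56 on that of ME, 55 on that of SED and 67 on the Cy3 array of ME.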
